A study of Mus musculus with 12 samples.

Results

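Surface proteins are the handles by which the stages of early B cells are told apart, and 9 of the genes that encode them were followed here: Cd24a, Cd93, Kit, Flt3, Spn, Bst1, Il2ra, Cd2 and Ms4a1. They were given by name and mapped to Ensembl identifiers in a table of 51826 mouse genes, and the set was drawn up with earlier results of these data known. All 9 were in the table, and 8 passed the filter on low counts. Kit, with at most 10 reads in a line, did not pass.

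The study compared mouse pre-B cells with cells transformed by BCR-ABL1, the fusion kinase of Philadelphia chromosome-positive acute lymphoblastic leukemia. Bone marrow of 2 C57BL/6 mice was grown for 7 days in medium with interleukin 7 (IL7), the growth factor of B cell precursors. From each mouse, 3 empty vector (EV) lines and 3 BCR-ABL1 lines were then made by transduction with retroviral pMIG, a vector that carries GFP. The EV lines stayed in IL7 and were sorted for GFP, whereas the BCR-ABL1 lines had IL7 for 48 h and were then kept without it for 1 week.

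All 12 lines are described by the labels as pro- and pre-B cells and share the strain and the vector backbone. BCR-ABL1 and the loss of IL7 coincided in all BCR-ABL1 lines, and a GFP sort is described for the EV lines only. The parts of these cannot be told apart in any comparison below. The 6 lines of a condition came from 2 animals, so that 3 lines at a time share an animal and p-values measure the spread between lines. The name of a line gives its mouse and a letter, so that EV 2B belongs to mouse 2. The age of the mice was not given in the sources used here.

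B lymphopoiesis in the marrow runs from progenitors that still express the receptor tyrosine kinases FLT3 and KIT, through pro-B cells that rearrange the heavy chain locus, to pre-B cells with a pre-B cell receptor, and on to immature B cells with surface immunoglobulin. CD43, encoded by Spn, and KIT are typical of pro-B cells and are lost as cells become small pre-B cells. CD25, encoded by Il2ra, and CD2 appear at the pre-B stage, CD24 and CD93 are carried by nearly all B cell precursors in the marrow, and CD20, encoded by Ms4a1, is a late marker. BST1, also known as BP-3 or CD157, is an ectoenzyme found on early B cells and on marrow stroma.

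The labelled cell type was first checked against markers. Genes on which B cell precursors depend, among them Cd79a, Pax5 and Vpreb1, summed to 2026 to 4070.4 CPM (reads on the gene, scaled to the size of the library) in EV lines. In BCR-ABL1 lines their sum was 2304 to 3030 CPM. The conditions were tested for a change beyond 1.5-fold, and 0 of these 7 genes passed that test by edgeR or by DESeq2. In the same test 0 had an unadjusted p under 0.05 by edgeR. A test against that margin cannot show that smaller changes were absent. For 2 of the 7, Vpreb1 and Igll1, the change differed between the mice (interaction of mouse and condition, edgeR adjusted p = 4.12e-04 and 0.00577), beside 16.9% of all tested genes. In mouse 1 the EV lines had 186 to 230 CPM of Vpreb1 and every BCR-ABL1 line had more (545 to 649 CPM), whereas in mouse 2 the EV lines had 451 to 790 CPM and the BCR-ABL1 lines 398 to 460 CPM. The markers of other cells were low. The summed CPM of 9 myeloid genes lay at 0.246 to 1.78 in EV and 0.436 to 0.857 in BCR-ABL1 lines, of 7 mast cell and basophil genes at 0 to 0.644 and 0 to 0.0304, of 7 dendritic cell genes at 0.430 to 2.48 and 0.159 to 0.291, of 7 erythroid and megakaryocyte genes at 2.13 to 3.25 and 1.16 to 1.95, and of 6 stromal genes at 0.0461 to 1.75 and 0.0208 to 0.203. The 8 T and NK cell genes summed to 62.3 to 119 and 67.2 to 127 CPM. Nearly all of this was Lck, a kinase that B cell precursors also express. The defining T cell gene Cd3e reached at most 0.123 CPM, and the NK cell genes Nkg7 and Ncr1 at most 0.0199 and 0.0613 CPM. A further NK cell gene, Klrb1c, was not as low, with a peak of 3.68 CPM in line BCR-ABL1 1B, while no EV line exceeded 1.07 CPM. Klrb1c was not called between the conditions (edgeR adjusted p = 0.497), but its change differed between the mice (interaction, edgeR adjusted p = 2.88e-04). Whether NK cells were present was not tested. Of these 44 genes of other cell types 5 were tested, and Zbtb46 of the dendritic list and Itga2b of the megakaryocyte list were called lower in BCR-ABL1 lines (log2 fold change -1.91 and -0.99, edgeR adjusted p = 0.0139 and 0.0470). Their part in the marker results was not tested. EV 2A was the highest line in the myeloid, mast cell, dendritic, erythroid and stromal sums, and it was also the shallowest library. Total counts were 34791011 to 64547911 per EV line and 45230023 to 66011225 per BCR-ABL1 line, so that 3 counts, taken as the floor of detection, amounted to at most 0.092 CPM. The floor accounts only for the error of counting, because reads with no molecular identifier can be copies of 1 molecule.

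The markers moved in both directions. Bst1, Flt3 and Cd2 were higher in BCR-ABL1 lines, by 65.0-fold, 12.2-fold and 9.41-fold, and Cd93 and Ms4a1 were lower. Cd24a, Spn and Il2ra did not pass the test, which asked of each gene whether its change exceeded 1.5-fold (edgeR, adjusted p under 0.05 over 15038 tested genes). Among all tested genes 5.99% were called higher and 6.49% lower, beside 3 and 2 of the 8 tested markers. The lines of both conditions did not overlap for 6 markers, which were these 5 and Cd24a, against 25.6% of all tested genes. The median log2 fold change was -0.26 over the tested markers and -0.02 over all tested genes. In bulk RNA of a culture, fewer cells that carry a marker and less RNA of it per cell cannot be told apart.

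**Figure D1:**
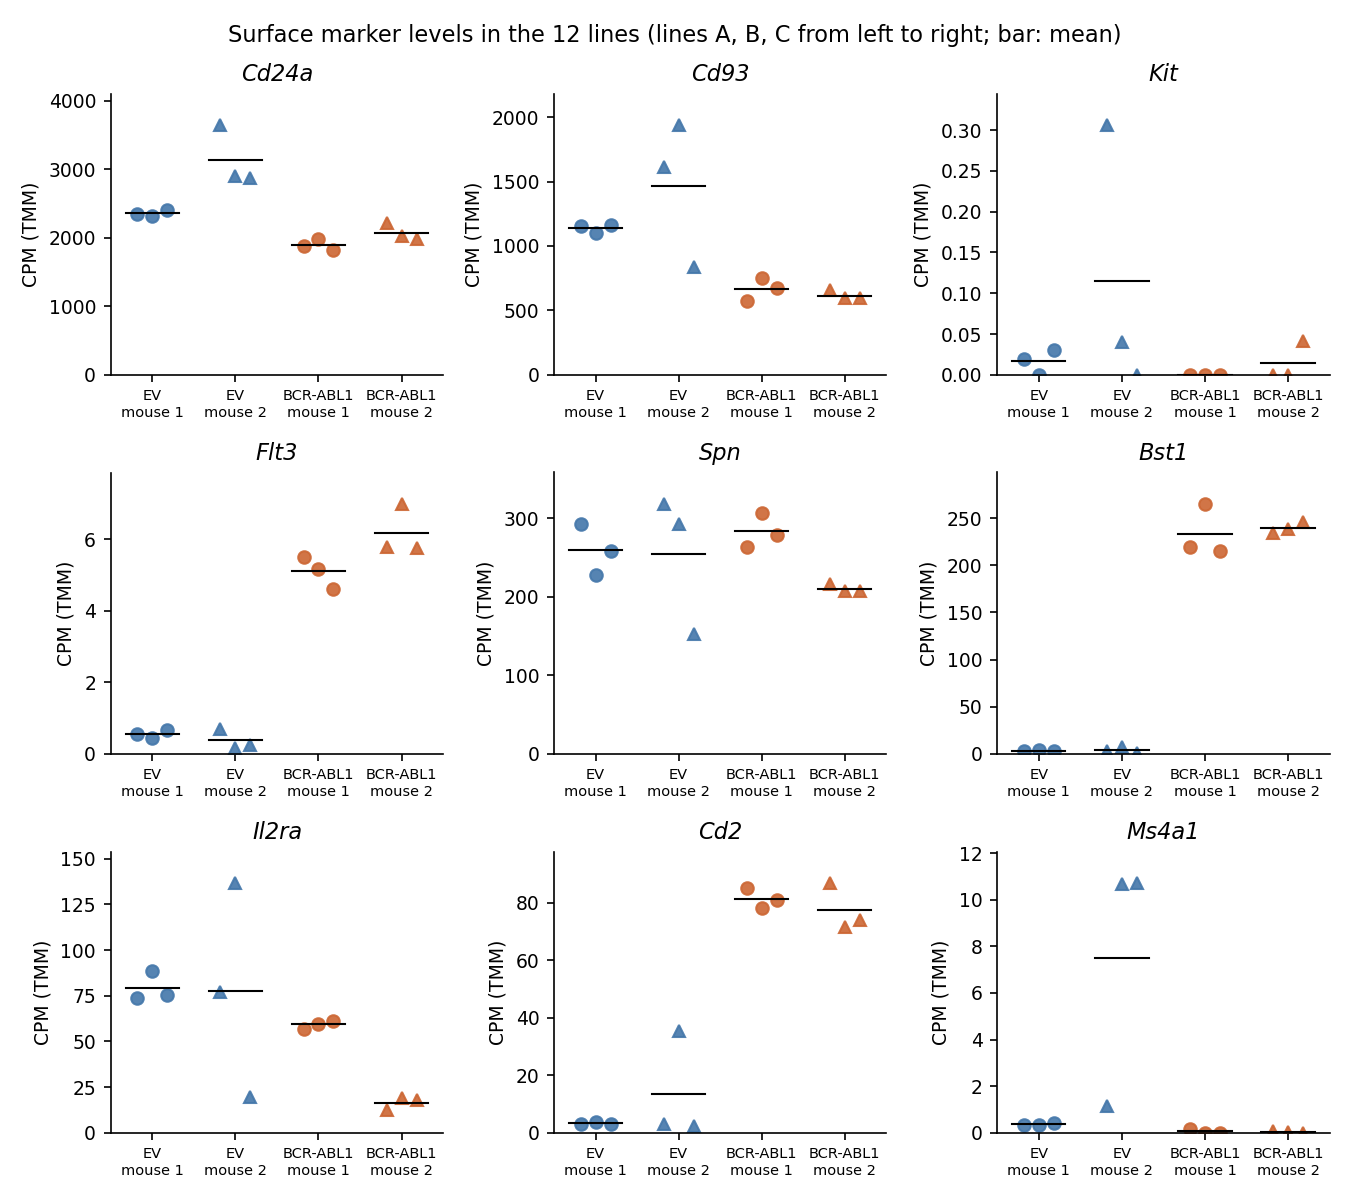
Level of each marker in CPM (vertical axis, own scale for each gene) in the EV and BCR-ABL1 lines of each mouse, with 1 point per line and a bar at the mean of 3 lines. The BCR-ABL1 lines lie above all EV lines for Bst1, Flt3 and Cd2, and below all EV lines for Cd93, Cd24a and Ms4a1, while EV 2B stands apart for Cd2 at 35.5 CPM and Kit does not exceed 0.307 CPM.

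The receptor tyrosine kinases are shown with their promoters, because one of them moved and the other was almost silent, and Il2ra is shown beside them because, of the tested markers, its BCR-ABL1 lines differed most between the mice. The stretches are the 250 bases before a RefSeq start of each gene on GRCm38.p6, written 5′ to 3′ on the strand of the gene. For Kit that start lies inside the gene by the positions given below, so that the end of its window does too. A second Kit window, from 75574741, is not printed. Capitals mark an E-box, CANNTG, the letters that E proteins such as E2A recognise. The table used here held 4 of the 9 genes, and Cd24a, Cd93, Bst1, Cd2 and Ms4a1 had no entry.
Flt3 (chr5:147400490-147400739, minus strand): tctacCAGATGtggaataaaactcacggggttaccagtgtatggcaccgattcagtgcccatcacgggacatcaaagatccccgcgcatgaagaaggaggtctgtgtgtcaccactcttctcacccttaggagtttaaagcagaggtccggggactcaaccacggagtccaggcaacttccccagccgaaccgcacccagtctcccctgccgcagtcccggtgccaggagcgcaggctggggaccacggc
Kit (chr5:75574737-75574986, plus strand): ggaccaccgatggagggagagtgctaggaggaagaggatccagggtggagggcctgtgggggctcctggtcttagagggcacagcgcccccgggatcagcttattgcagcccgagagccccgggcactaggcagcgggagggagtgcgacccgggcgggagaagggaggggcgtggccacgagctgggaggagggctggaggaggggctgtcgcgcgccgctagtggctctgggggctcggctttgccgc
Il2ra (chr2:11642542-11642791, plus strand): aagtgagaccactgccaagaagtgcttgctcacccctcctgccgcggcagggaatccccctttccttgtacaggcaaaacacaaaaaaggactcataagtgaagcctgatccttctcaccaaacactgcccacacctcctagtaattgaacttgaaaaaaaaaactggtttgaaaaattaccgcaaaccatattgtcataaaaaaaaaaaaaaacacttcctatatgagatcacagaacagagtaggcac

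On both strands the letters of 4 motifs were searched, which were the E-box CANNTG, the STAT palindrome TTCNNNGAA, the octamer ATGCAAAT and the TATA box TATAAA. An octamer that is followed by G also holds an E-box on its last letters, and no matches overlapped in these windows. A single match was found in Flt3, an E-box that starts 245 bases before the gene, and Spn held 1 E-box 174 bases before its start. Kit and Il2ra held none of the 4. Of 32851 promoter windows of the same length, 66.22% held an E-box, 7.02% the STAT palindrome, 1.601% the octamer and 12.37% the TATA box. A match is a description of letters, and the lack of one says only that these letters are not in this window. The promoters differed in base composition, with 70.8% G and C in Kit, 59.2% in Flt3, 56.8% in Spn and 42.4% in Il2ra, against a median window of 52.4%.

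Flt3 (chromosome 5, 147330741 to 147400489) encodes the receptor for FLT3 ligand, which lymphoid progenitors carry and which committed B cells switch off. Its reads per EV line were 29, 31 and 43 in mouse 1 and 23, 8 and 14 in mouse 2, which gave 0.159 CPM at the lowest, 0.497 at the median and 0.705 at the highest. In the BCR-ABL1 lines there were 325, 248 and 203 reads in mouse 1 and 300, 460 and 278 in mouse 2, or 4.61 to 7.00 CPM with a median of 5.64. Every BCR-ABL1 line was thus above every EV line, yet the gene stayed low in both conditions. The log2 fold change was 3.61 (SE 0.32, n = 6 lines per condition, edgeR adjusted p = 2.86e-05). Here and below, SE is that of the difference in mean log2 CPM between the lines, not of the fitted change. Within each mouse it was also called, at 3.21 (SE 0.17) in mouse 1 with an adjusted p of 1.25e-04 and at 4.14 (SE 0.58) in mouse 2 with an adjusted p of 7.17e-05 by edgeR. The value in mouse 2 was 4.87 without EV 2A, 3.76 without EV 2B and 3.97 without EV 2C.

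Kit (chromosome 5, 75574916 to 75656722) encodes the receptor for stem cell factor and is a classical pro-B cell marker. It was at or below the floor of 3 counts in 11 of 12 lines. The EV lines had 1, 0, 2, 10, 2 and 0 reads, in the order 1A to 2C, and the BCR-ABL1 lines had 0 in 5 lines and 2 in BCR-ABL1 2C. The 10 reads of EV 2A, 0.307 CPM, were in the line whose mast cell and basophil sum was the highest, at 0.644 CPM, and the part of such cells in that value was not tested. No fold change was computed, since neither condition rose above the floor beyond that line.

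The markers were read beside 19 genes for their ligands and partner proteins. Of these, 15 were tested, and Icam1 was called higher and Flt3l lower. Over all tested genes 5.99% were called higher and 6.49% lower. The list had a median of 0.24 on the log2 scale. Flt3l, which encodes the ligand of FLT3, fell from 2.51 to 9.22 CPM in EV lines to 2.29 to 3.34 CPM in BCR-ABL1 lines, where the ranges overlap (log2 fold change -1.25, SE 0.28, edgeR adjusted p = 0.0266). Kitl, the gene of stem cell factor, was not tested and reached at most 5 counts in a line. The interaction of mouse and condition was called for 4 of the 15, beside 16.9% of all tested genes. These were Cd48, Cd81, Cd2bp2 and Pstpip1 (edgeR adjusted p = 0.0156, 0.00107, 0.00952 and 0.0133).

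Downstream of KIT and FLT3, 19 genes for adaptors, phosphatases and kinases that relay or restrain their signals were all tested, and 3 were called higher and 1 lower. Among all tested genes these shares were 5.99% and 6.49%. The median of the list was -0.08 on the log2 scale. Plcg1, a phospholipase that receptor kinases activate, rose from 29.8 to 80.0 CPM to 103 to 185 CPM (log2 fold change 1.73, SE 0.28, edgeR adjusted p = 0.00319). Its change differed between the mice, as did that of 4 other genes of the list (interaction, edgeR adjusted p = 0.0115 for Plcg1), beside 16.9% of all tested genes. The other 3 called genes were lowly expressed. Fes, a cytoplasmic kinase, rose by 2.66 on the log2 scale (SE 0.43, edgeR adjusted p = 0.00353) to at most 1.10 CPM. Sla2, which encodes an adaptor that dampens receptor signals, rose by 2.06 (SE 0.29, edgeR adjusted p = 0.00227) to at most 3.49 CPM. Fgr, a SRC family kinase, fell by 2.82 (SE 0.42, edgeR adjusted p = 0.00210) from at most 1.45 CPM.

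Bst1 (chromosome 5, 43818885 to 43843986) showed the widest separation. The EV lines had 3.11, 3.52 and 3.21 CPM in mouse 1 and 3.31, 7.59 and 1.12 CPM in mouse 2. The BCR-ABL1 lines had 220, 265 and 216 CPM in mouse 1 and 234, 238 and 246 CPM in mouse 2. The spread between BCR-ABL1 lines was small (mean 236.5 ± 18.1, SD, n = 6) and the lowest of them was far above the highest EV line. The log2 fold change was 6.02 (SE 0.36, edgeR adjusted p = 1.45e-06), with 6.15 in mouse 1 and 5.90 in mouse 2. The value in mouse 2 was 6.82 without EV 2B and 5.42 without EV 2C. The gene shares 98 exon bases, 2.95% of its exons, with Fbxl5 on the opposite strand, and whether the counting used the strand is not given in the sources used here. Fbxl5 had 139 to 226 CPM in EV lines, and in BCR-ABL1 lines 242 to 295 CPM (log2 fold change 0.51, edgeR adjusted p = 1).

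Cd38, which encodes the related NAD-consuming enzyme on lymphocytes, had 2.24 to 15.5 CPM in EV lines, and in BCR-ABL1 lines 16.0 to 27.4 CPM, and this difference did not pass the test (log2 fold change 0.78, SE 0.46, edgeR adjusted p = 0.514).

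Spn (chromosome 7, 127132232 to 127137823) encodes CD43, the large mucin of pro-B cells, and did not separate the conditions. Its level was 292, 227 and 258 CPM in the EV lines of mouse 1 and 318, 292 and 152 CPM in those of mouse 2. The BCR-ABL1 lines had 264, 307 and 279 CPM in mouse 1 and 216, 207.2 and 207.3 CPM in mouse 2. The lines overlapped, with EV 2C as the lowest of the 12. The log2 fold change of -0.06 (SE 0.19, edgeR adjusted p = 1) was smaller than the SE beside it. It was 0.13 (SE 0.12) in mouse 1 and -0.28 (SE 0.34) in mouse 2, neither of which was called. The ERM proteins link CD43 to the actin cortex, and of their genes Ezr (log2 fold change 0.76, edgeR adjusted p = 0.0505), Rdx (0.25) and Msn (0.00) did not pass the test. Icam1, an adhesion partner of CD43, was called higher, at 0.981 to 6.61 CPM in EV, and in BCR-ABL1 lines 10.1 to 25.7 CPM (log2 fold change 1.83, SE 0.50, edgeR adjusted p = 0.0242).

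Cd24a (chromosome 10, 43578284 to 43584265) encodes heat-stable antigen, a small lipid-anchored glycoprotein, and was the most abundant marker. The EV lines ranged from 2322 to 3648 CPM with a median of 2637 CPM. The BCR-ABL1 lines ranged from 1826 to 2214 CPM with a median of 1985 CPM. No BCR-ABL1 line reached the lowest EV line, but the log2 fold change of -0.47 (SE 0.11) lay within the 1.5-fold margin and was not called (edgeR adjusted p = 1). Against a margin of no change its adjusted p by edgeR was 0.00607, in a test that called 3389 of all tested genes higher and 3897 lower. Siglecg, which encodes a lectin partner of CD24, was at 17.0 to 102 CPM in EV, and in BCR-ABL1 lines 25.4 to 75.4 CPM, and it did not pass the test (log2 fold change -0.28, SE 0.53).

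Cd93 (chromosome 2, 148436640 to 148443563), the AA4.1 antigen of immature B cells, was lower in BCR-ABL1 lines. The EV lines had 1158, 1099 and 1162 CPM in mouse 1 and 1615, 1942 and 833 CPM in mouse 2. The BCR-ABL1 lines had 576, 752 and 674 CPM in mouse 1 and 655, 596 and 593 CPM in mouse 2. The lines did not overlap, although EV 2C came close to BCR-ABL1 1B. The log2 fold change was -1.02 (SE 0.19, edgeR adjusted p = 0.0326), a 2.03-fold lower level. This call was close to the threshold and was lost in 10 of 22 other settings. Among these were the fits by edgeR without EV 2A (adjusted p = 0.0618), EV 2B (0.0624), BCR-ABL1 1A (0.0601), 1C (0.0561), 2B (0.0612) or 2C (0.0611). Within the mice the log2 change was -0.77 (SE 0.11, edgeR adjusted p = 0.288) in mouse 1 and -1.25 (SE 0.37, edgeR adjusted p = 0.0228) in mouse 2, where it was lost without any 1 of EV 2A, EV 2B and the BCR-ABL1 lines of that mouse (edgeR adjusted p = 0.0522 to 0.0886).

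Il2ra (chromosome 2, 11642807 to 11693193) encodes CD25, the alpha chain of the interleukin 2 receptor and a marker of pre-B cells. In EV lines it was at 73.5, 88.3 and 75.2 CPM in mouse 1 and at 77.1, 137 and 19.4 CPM in mouse 2. In BCR-ABL1 lines it was at 56.9, 59.7 and 61.3 CPM in mouse 1 and at 12.5, 18.8 and 17.8 CPM in mouse 2. The BCR-ABL1 lines of the mice thus did not overlap, and the low line EV 2C lay just above those of mouse 2. Over all lines the log2 fold change was -1.05 (SE 0.58) and did not pass the test (edgeR adjusted p = 0.383). In mouse 1 it was -0.41 (SE 0.09, edgeR adjusted p = 1) and in mouse 2 -2.25 (SE 0.86, edgeR adjusted p = 0.0189). The call in mouse 2 was lost without EV 2B (-1.56, edgeR adjusted p = 0.0717), without any 1 of the BCR-ABL1 lines of mouse 2 (edgeR adjusted p = 0.0514 to 0.0827) and when that mouse was fitted alone (edgeR adjusted p = 0.134). Of the other chains of its receptor, Il2rg was at 20.1 to 24.2 CPM in EV, and in BCR-ABL1 lines 14.8 to 18.8 CPM (log2 fold change -0.34, edgeR adjusted p = 1), and Il2rb and the cytokine gene Il2 were not tested, with at most 10 and 4 counts in a line.

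Cd2 (chromosome 3, 101275899 to 101287939), an adhesion receptor that appears on pre-B cells, was higher in BCR-ABL1 lines. The EV lines had 3.12, 3.67 and 2.99 CPM in mouse 1 and 3.01, 35.5 and 2.40 CPM in mouse 2, so that 1 line stood far above the other 5. The BCR-ABL1 lines were close together at 85.1, 78.1 and 81.1 CPM in mouse 1 and 87.0, 71.8 and 74.1 CPM in mouse 2. No EV line reached them. The log2 fold change was 3.23 (SE 0.60, edgeR adjusted p = 0.0106), and without EV 2B it was 4.70 (edgeR adjusted p = 8.16e-10). It was 4.64 (SE 0.10, edgeR adjusted p = 0.00261) in mouse 1 and 2.50 (SE 1.24, edgeR adjusted p = 0.0783) in mouse 2. In mouse 2 it was called without EV 2B (4.85, edgeR adjusted p = 9.64e-08) or without EV 2C (1.98, edgeR adjusted p = 0.0390). Cd48, the ligand of CD2 in the mouse, was at 24.1 to 55.3 CPM in EV, and in BCR-ABL1 lines 46.1 to 56.7 CPM (log2 fold change 0.24, edgeR adjusted p = 1).

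Ms4a1 (chromosome 19, 11249675 to 11266241) encodes CD20, a tetraspanning protein of maturing B cells. It had 18, 23 and 28 reads in the EV lines of mouse 1 and 37, 538 and 595 in those of mouse 2. The BCR-ABL1 lines had 10, 0 and 0 reads in mouse 1 and 4, 3 and 0 in mouse 2. The EV lines thus split, with EV 2B and EV 2C at 10.7 CPM each and the other 4 at 0.332 to 1.13 CPM, while no BCR-ABL1 line exceeded 0.170 CPM. The gene was called lower, with a fitted log2 fold change of -6.19 (SE 1.04, edgeR adjusted p = 0.00771). The size of that value rests on few reads, because 4 of the BCR-ABL1 lines were at or below the floor of 3 counts. By DESeq2 it was -6.28. The SE comes from log2 CPM, which has another prior count than the fit, and is not the error of the fitted value. It was -2.48 (SE 0.83, edgeR adjusted p = 0.219) in mouse 1 and -7.41 (SE 1.17, edgeR adjusted p = 0.00107) in mouse 2. Without BCR-ABL1 1A, the line with 10 reads, the value in mouse 1 was -7.30 (edgeR adjusted p = 0.0652) beside -7.42 in mouse 2. As BCR-ABL1 1B and 1C had 0 reads, the size of the -7.30 was set by the prior count of the fit. Without BCR-ABL1 2A the value in mouse 2 was -8.08.

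**Figure D2:**
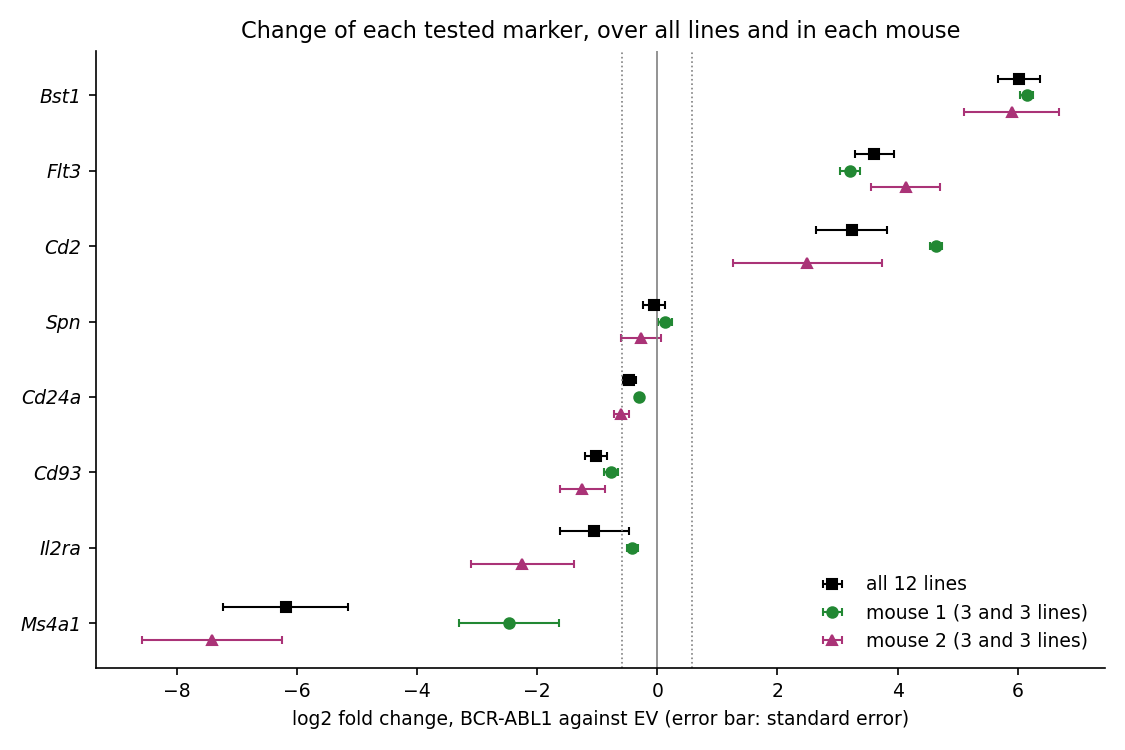
Log2 fold change of BCR-ABL1 against EV lines (horizontal axis) for the 8 tested markers, over all 12 lines and within each mouse. Error bars are 1 standard error of the difference in mean log2 CPM, drawn on the fitted change. Bst1 and Flt3 lie to the right in both mice, Cd2 has a wide error in mouse 2 (SE 1.24), and Il2ra and Ms4a1 lie further to the left in mouse 2 than in mouse 1.

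Whether the 2 mice responded differently was asked with the interaction of mouse and condition, which sets the change in mouse 2 against that in mouse 1. Within mouse 1 there were 3 called markers, Flt3, Bst1 and Cd2, where 19.3% of all tested genes were called. Within mouse 2 there were 5, Cd93, Flt3, Bst1, Il2ra and Ms4a1, where 12.9% were called. These calls share the spread of all 12 lines. Fitted alone, the lines of mouse 1 also gave calls for Cd93 (edgeR adjusted p = 0.0433) and Ms4a1 (0.0333), and those of mouse 2 gave calls for Flt3, Bst1 and Ms4a1. Over all genes, the fit of mouse 1 alone called 2512 higher and 1877 lower, and that of mouse 2 alone 614 and 408. The difference between the mice was itself called for 0 of the 8 markers, against 16.9% of all tested genes (edgeR). At an unadjusted p under 0.05 there were 2 of 8. The difference in log2 change was widest for Ms4a1 (-4.94, edgeR adjusted p = 0.101), Cd2 (-2.14, edgeR adjusted p = 0.218) and Il2ra (-1.83, edgeR adjusted p = 0.0952). For Bst1 it was -0.25 and for Cd24a -0.28.

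These values moved with single lines. Without BCR-ABL1 1A the interaction of Ms4a1 was -0.13 (edgeR adjusted p = 0.891). The BCR-ABL1 lines of mouse 1 that remained, 1B and 1C, had 0 reads of it. The size of that value was thus set by the prior count of the fit, and it cannot show whether the mice differ. Without EV 2C, which was the lowest EV line for Cd93, Spn, Il2ra, Cd2 and Bst1, the interaction was called for 4 markers. These were Cd93 (-0.76, edgeR adjusted p = 0.00251), Spn (-0.66, edgeR adjusted p = 0.00271), Il2ra (-2.29, edgeR adjusted p = 5.31e-05) and Cd2 (-2.66, edgeR adjusted p = 0.0177). Without EV 2A it was called for Flt3 (1.67, edgeR adjusted p = 0.00826) and Ms4a1 (-5.45, edgeR adjusted p = 0.0215). Without EV 2B the interaction of Cd2 turned to 0.22 and that of Bst1 to 0.68.

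The EV lines of both mice were then set against each other, and likewise the BCR-ABL1 lines. Among EV lines, Ms4a1 was lower in mouse 1 (log2 difference -4.35, SE 1.07, edgeR adjusted p = 0.00689), and it was the only marker called in that comparison, which called 10.3% of all tested genes. Cd2 had a log2 difference of -2.07 (SE 1.24, edgeR adjusted p = 0.225), which was 0.29 without EV 2B and was called without EV 2C (-2.59, edgeR adjusted p = 0.0134). Flt3 was called without EV 2A (1.40 higher in mouse 1, edgeR adjusted p = 0.0312). Among BCR-ABL1 lines 0 markers were called by edgeR, where 2.65% of all tested genes were, and 1 marker had an unadjusted p under 0.05. Il2ra had the widest difference there, 1.86 higher in mouse 1 on the log2 scale with no overlap of the lines of both mice (SE 0.19, edgeR adjusted p = 0.172). It was called without EV 2B (edgeR adjusted p = 0.0467) or without EV 2C (2.80e-04). Spn was 0.43 higher in mouse 1 (SE 0.07, edgeR adjusted p = 1).

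Levels of different genes were compared as CPM per kilobase of exon. In EV lines the order of the means was Cd24a (1065), Cd93 (195), Spn (54.9), Il2ra (13.7), Cd2 (4.85), Bst1 (1.10), Ms4a1 (0.637), Flt3 (0.0748) and Kit (0.0074). The first 4 were separated, in that no line of Cd93 reached a line of Cd24a, none of Spn reached Cd93 and none of Il2ra reached Spn. From Il2ra downward the ranges of neighbours overlapped, although Il2ra was above Cd2 within each of the 6 lines, and Cd2 above Bst1. Ms4a1 was above Flt3 in 3 of 6 lines. On CPM without length, Ms4a1 came before Bst1.

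In BCR-ABL1 lines Bst1 moved from the sixth to the third place. The means per kilobase were 769.8 for Cd24a, 96.0 for Cd93, 71.3 for Bst1, 52.7 for Spn, 45.7 for Cd2, 6.63 for Il2ra, 0.913 for Flt3, 0.0079 for Ms4a1 and 0.00078 for Kit. The ranges of Bst1 and Spn overlapped, although Bst1 was the higher of them in 6 of 6 lines, and Spn was above Cd2 in 5 of 6 lines. Ms4a1 and Kit were not separated. On CPM without length, Spn came before Bst1.

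**Figure D3:**
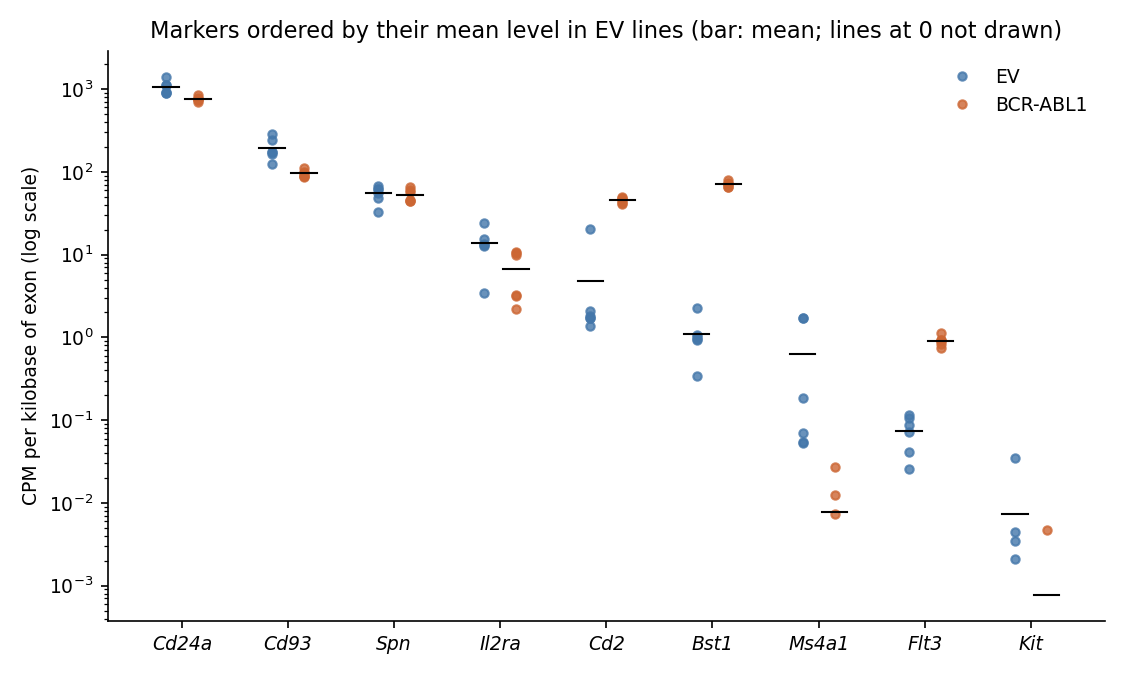
Level of each marker per kilobase of exon (CPM per kb, log axis) in EV and BCR-ABL1 lines, ordered by the mean in EV lines, with 1 point per line and a bar at the mean (lines at 0 not drawn). Cd24a leads in both conditions, at 1065 and 769.8 CPM per kb, while Bst1 rises from 1.10 to 71.3 and Ms4a1 drops from 0.637 to 0.0079.

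A wider list of 28 surface proteins that are used to stage early B cells, or to exclude other cells, was read beside the 9 markers. Of these, 22 were tested, 1 was called higher and 6 lower, with a median change on the log2 scale of -0.59. Of all tested genes 5.99% were called higher and 6.49% lower. Ly6a, the stem cell antigen SCA-1, rose from 0.123 to 0.577 CPM to 3.92 to 18.7 CPM (log2 fold change 5.03, SE 0.51, edgeR adjusted p = 1.16e-04). Cd72, a coreceptor that restrains B cell receptor signals, fell from 244 to 592 CPM to 73.1 to 92.5 CPM (log2 fold change -2.52, SE 0.20, edgeR adjusted p = 7.65e-06). Cd40, the receptor for T cell help on B cells, fell from 0.875 to 5.03 CPM to 0.182 to 0.610 CPM (log2 fold change -2.99, SE 0.56, edgeR adjusted p = 0.00448). Cd22, a sialic acid-binding inhibitory coreceptor, fell from 82.4 to 194.6 CPM to 21.8 to 81.4 CPM (log2 fold change -1.36, SE 0.34, edgeR adjusted p = 0.0345). The interaction of mouse and condition was called for 8 of the 22 tested genes of the list, beside 16.9% of all tested genes. Among the genes of the list named here, those with such a call were Ly6a (edgeR adjusted p = 4.73e-04), Cd40 (0.00472), Ly6d (0.00789), Cd9 (4.07e-06) and Cd48 (0.0156).

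The other called genes of that list fell by less, and they were Ly6d (log2 fold change -1.28), Ighm (-1.07) and Il7r (-1.06). The general B cell antigens Ptprc (-0.10) and Cd79a (-0.00) did not pass the test. Cd9, a tetraspanin, had a fitted log2 fold change of -4.41 but was not called (edgeR adjusted p = 0.142), and its EV lines ranged from 0 to 39.3 CPM.

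**Figure D4:**
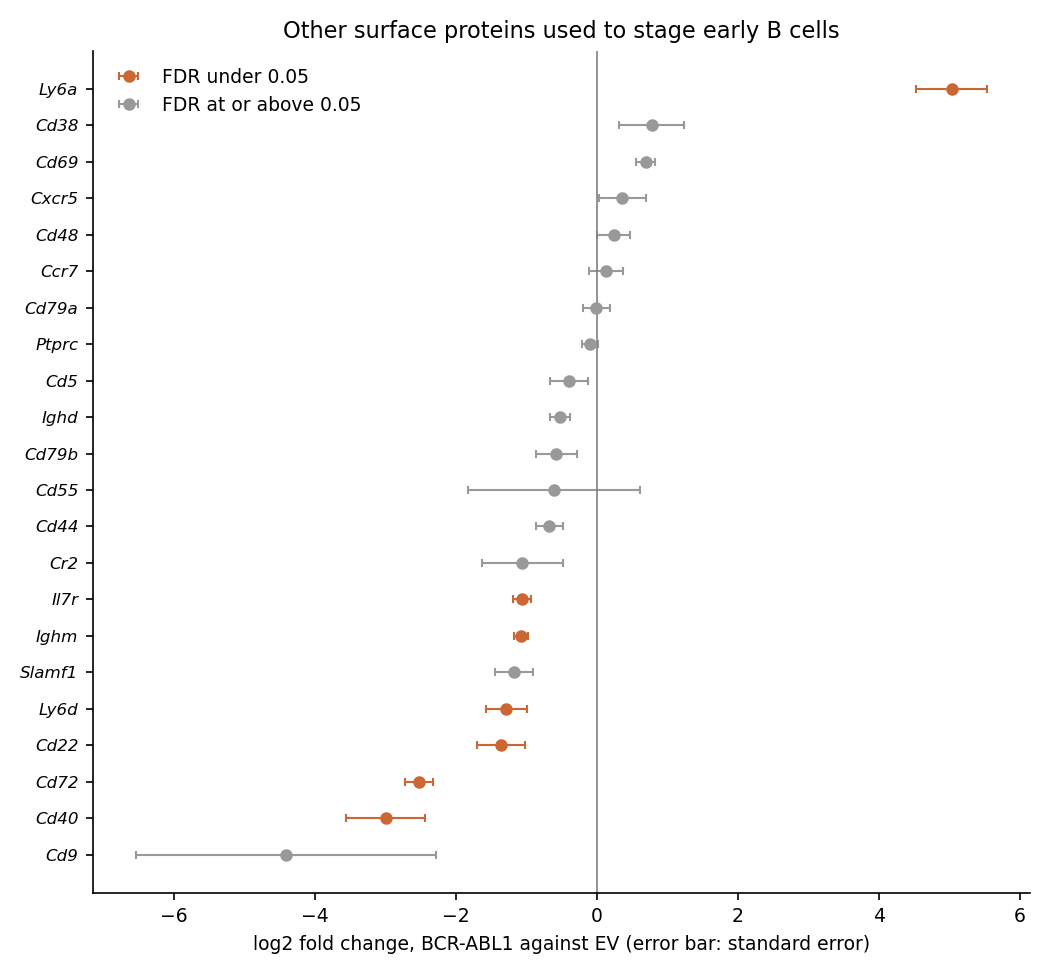
Log2 fold change of BCR-ABL1 against EV lines (horizontal axis) for the 22 tested genes of the wider staging list, with called genes in a separate colour. Error bars are 1 standard error of the difference in mean log2 CPM, drawn on the fitted change. Ly6a (5.03) lies furthest to the right, and among called genes Cd40 (-2.99) and Cd72 (-2.52) lie furthest to the left.

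Staging by surface protein goes together with the genes that build the receptor, and 8 of these were tested, of which 1 was called higher and 1 lower (median of 0.23 on the log2 scale). The shares of all tested genes were 5.99% and 6.49%. Dntt, which encodes the terminal transferase active in pro-B cells, was at 0.101 to 18.5 CPM in EV, and in BCR-ABL1 lines 31.6 to 179 CPM (log2 fold change 4.30, SE 1.25, edgeR adjusted p = 0.0396). Its change differed between the mice (interaction, edgeR adjusted p = 0.00427), as did those of 3 other genes of the list, Vpreb1, Vpreb2 and Igll1 (4.12e-04, 5.10e-05 and 0.00577). Among all tested genes the interaction was called for 16.9%. Igkc, the constant segment of the kappa light chain, fell from 303 to 435 CPM to 45.3 to 66.1 CPM (log2 fold change -2.75, SE 0.12, edgeR adjusted p = 2.70e-07). The surrogate light chain genes Vpreb1 (0.35) and Igll1 (0.17) and the recombinase gene Rag1 (-0.66) did not pass the test over all lines. In mouse 1 the EV lines had 181 to 219 CPM of Igll1 and the BCR-ABL1 lines 433 to 482 CPM, whereas in mouse 2 these were 362 to 813 and 349 to 387 CPM.

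For each tested marker, the gene with the most similar profile was named as a description. Likeness was the root mean square difference of log2 CPM over the 12 lines after each gene was centred on its own mean, over tested protein-coding genes. For Cd24a it was Rabac1 (0.0911), for Cd93 Akirin1 (0.103), for Spn Tmco3 (0.130), for Flt3 Ctnna1 (0.391), for Bst1 Tnf (0.407), for Il2ra Rab44 (0.422), for Cd2 Olfr372 (0.574) and for Ms4a1 Adamts7 (1.35). Genes whose conditions lie closer together reach smaller values of this measure. Tnf had a log2 fold change of 6.08 beside 6.02 for Bst1, and Rab44 one of -1.15 beside -1.05 for Il2ra.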

How the data were processed

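RNA of 6 EV and 6 BCR-ABL1 lines from 2 mice was sequenced on TruSeq stranded total RNA libraries, and the authors deposited raw counts per gene for the 12 lines, without normalization. Per the submitters' processing notes the tools were FastQC 0.11.5, Trimmomatic 0.36, TopHat2 2.1.1, Bowtie2 2.3.2, featureCounts 1.5.3, R 3.6.1 and edgeR 3.18.1 on GRCm38, and the annotation and the strand setting are not given in the sources used here. Groups, mice and line letters came from the sample labels.

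Analyses used edgeR 4.0.16 (with limma 3.58.1) and DESeq2 1.42.0 in R 4.3.3. Plots were made in Python 3.11.15 with matplotlib 3.10.9. After filterByExpr and TMM, 15038 genes were tested with glmTreat against 1.5-fold after a quasi-likelihood fit, and p-values were adjusted by Benjamini-Hochberg over all of them, with 0.05 as the threshold. Changes within a mouse, differences between mice and their interaction (glmQLFTest) came from a fit of the 4 groups of mouse and condition. CPM were scaled by TMM, and log2 CPM had a prior count of 2. Standard errors are those of the difference in mean log2 CPM between groups of lines and reflect how far log2 CPM varied between lines. Fold changes are the fitted values of edgeR, so that a standard error is not that of the fold change beside it. Symbols for 51633 identifiers, positions and exon lengths came from GENCODE M21 on GRCm38, and promoter sequences from RefSeq (GRCm38.p6). The fits were tested on simulated counts. For the test of the conditions these counts held no effect of the mouse, so they cannot cover lines that share an animal. Some genes of the marker and staging lists are not reported here.

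The markers and gene lists were chosen with earlier results of these data known. All 9 markers are named, as are up to 4 called genes with the largest change of each list and the gene with the nearest profile to each tested marker, and Fbxl5 and genes that did not pass the test were added for context after their values were seen. Alternatives were RLE size factors, other gene filters, DESeq2, a likelihood ratio fit, a null of no change, a replicate block by mouse or by line number, each mouse alone and each line left out. For contrasts between the mice the alternatives were chosen after seeing the data. By the labels, lines whose names share a digit share the animal. Deviations from the condition means correlated at 0.0853 to 0.240 for EV with BCR-ABL1 lines when both came from 1 mouse, and at -0.203 to -0.0636 otherwise, so that the mouse paired the samples. After removal of the mouse means, lines of equal letter correlated at -0.109 to 0.0856. Lines of unequal letter were not compared, so that whether the letter pairs lines was not tested. The paper describes triplicates from independent experiments, and whether the letters name these is not given in the sources used here. Replicates of a mouse and condition differed by a chi-square per gene of 9.96 to 481, and no pair was taken as 1 library.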

Additional observations from a re-analysis of the deposited data

Results flagged for a closer look

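In 4 of 18 groups of 6 lines, 1 line stood apart by Dixon's criterion. Chance meets it in about 1 of 20 groups of normally distributed values. That rate does not hold for Kit, flagged in both conditions with counts mostly at or below the floor, so the 4 of 18 cannot be set against it. Cd2 was at 35.5 CPM in EV 2B (1788 reads), and the other 5 EV lines were at 2.40 to 3.67 CPM. Bst1 was highest in the same line, at 7.59 CPM (382 reads), with a gap of 0.628 of the group's range, just past the critical value. Kit was at 0.307 CPM in EV 2A, with 10 reads, and at 0.0415 CPM in BCR-ABL1 2C, with 2 reads, below the floor of 3 counts. EV 2B was also the highest EV line for Cd93 and Il2ra, and with EV 2C for Ms4a1. Its summed B lineage markers were the highest of the 12 lines, at 4070.4 CPM, and their part in these values was not tested.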

How the results depend on the processing

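Flt3 and Bst1 were called higher in all 22 alternatives, and Ms4a1 was called lower in all 21 in which it could be tested, with adjusted p up to 0.038. The count of 3 markers higher held in every alternative except mouse 2 alone, where Cd2 was lost (2.52, adjusted p = 0.292). The count of 2 markers lower became 1 with no gene filter, with a filter that asks 6 lines to reach 1 CPM (where Ms4a1 was not tested), with DESeq2, with line number as replicate block and in mouse 2 alone, and ranged from 1 to 2 when each line was left out. Apart from the CPM filter, Cd93 was the marker lost, with adjusted p of 0.0544, 0.185, 0.0672 and 0.137, and the cause was not tested. Mouse as replicate block gave 3 higher and 2 lower and changed no marker's call, with 1126 and 1080 of all genes called. Cd24a was called only against no change. Without single lines, the fitted change of Ms4a1 ranged from -7.11 (without BCR-ABL1 1A) to -5.57 (without EV 2C) and that of Cd2 from 3.04 to 4.70 (without EV 2B).

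Over all genes, 901 were called higher and 976 lower, against 3389 and 3897 in the test against no change, 2512 and 1877 in mouse 1 alone, and 614 and 408 in mouse 2 alone. Leaving out lines gave 807 to 1353 higher and 802 to 1434 lower. The marker called between EV lines of the mice was lost with the CPM filter (0), and without single lines the counts were 1 to 2 between EV lines, 0 to 1 between BCR-ABL1 lines and 0 to 4 for the interaction. Spn turned to 0.14 in mouse 1 alone and ranged from -0.17 to 0.018 without single lines. The interaction ranged from -0.73 to 0.68 for Bst1, from -2.66 to 0.22 for Cd2 and from -5.59 to -0.13 (without BCR-ABL1 1A) for Ms4a1. In the fit that gave -0.13, the BCR-ABL1 lines of mouse 1 had no reads of Ms4a1. Depth limited Kit and, in BCR-ABL1 lines, Ms4a1, whose counts were at or near the floor.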
